A study of Mus musculus with 2 samples.

Results

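The auxiliary proteins of AMPA receptors were described by 10 genes chosen by name: Cacng2, Cacng3, Cacng4, Cacng5, Cacng7, Cacng8, Cnih2, Cnih3, Shisa6 and Shisa9. They are 10 of 55536 annotated genes in the gene table, and each was found there once. The study sequenced total RNA of left cerebral cortex. The mice were B6CASTF1/J males of 25 days, the offspring of C57BL/6J crossed with CAST/EiJ. There was 1 group of 2 animals, here replicate 1 and replicate 2, with no treatment, no transgene and 300 ng of RNA in each library. Both libraries carry the same donor entry in the labels, so that they come from separate animals rests on their separate biobank numbers and on the term biological replicate. Each SD below (n = 2) rests on that too. The single group allows no test between conditions, so values are given for each animal and differences compare 1 library with 1.

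AMPA receptors carry most fast excitatory transmission in the cortex. Their pore is built from the subunits encoded by Gria1 to Gria4, and the auxiliary proteins bind that pore, bring it to the surface, hold it at synapses and set how fast it closes and desensitizes. The transmembrane AMPA receptor regulatory proteins (TARPs) are membrane proteins related to a calcium channel subunit. Cacng2 (stargazin), Cacng3, Cacng4 and Cacng8 encode type I TARPs, whose tails bind the scaffold protein PSD-95, and Cacng5 and Cacng7 encode type II TARPs. The cornichon homologues Cnih2 and Cnih3 belong to a family of cargo exporters of the endoplasmic reticulum and slow the closing of the receptor. Shisa6 and Shisa9 encode single-pass proteins with a cystine-rich outer domain, the CKAMP group.

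Total expected counts over annotated genes were 30372235 in replicate 1 and 33134266 in replicate 2, and the 10 auxiliary genes received 19904 and 22337 of them, 0.0655% and 0.0674%. Counts per gene ran from 455 to 3445, so counting error was small at gene level and grew for transcripts with few reads. Counts of the libraries differed by more than sampling noise (chi-square over degrees of freedom 5.56), so they are not one library deposited as a pair.

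The coding ends of the TARP and Shisa genes are shown because they mark the families. Each line gives the last 30 coding bases in mm10, read from the GENCODE M21 transcripts, with the last 4 codons before the stop codon in capitals.
Cacng2, chr15:77995149-77995178, minus strand: acagccaaccgccggACCACGCCCGTAtga
Cacng3, chr7:122768817-122768846, plus strand: ccggccaacagacgtACCACGCCTGTCtga
Cacng4, chr11:107734780-107734809, minus strand: atgctgaaccggcggACGACTCCCGTGtga
Cacng8, chr7:3415576-3415605, plus strand: acgctcaacaggaaaACCACGCCCGTGtag
Cacng5, chr11:107877352-107877381, minus strand: tatgaccagatgtcaTCATCTCCCTGCtga
Cacng7, chr7:3366919-3366948, plus strand: catctccacatctccACTTCGCCGTGCtga
Shisa6, chr11:66217472-66217501, minus strand: acagccagcaagactGAAGTGACCGTGtga
Shisa9, chr16:12267774-12267803, plus strand: actaacagcaaaacaGAAGTGACTGTCtga
The 12 capital bases of Cacng3, Cacng4 and Cacng8 matched those of Cacng2 at 10, 9 and 11 positions, and those of the type II genes Cacng5 and Cacng7 at 5 and 6. Shisa6 and Shisa9 matched each other at 10 of the 12. Over the whole coding sequence Cacng2 and Cacng3 were 70.6% identical, Cacng5 and Cacng7 71.8%, Cnih2 and Cnih3 77.2%, and Shisa6 and Shisa9 50.9%. The longest exact run shared by the transcripts of any of the 17 within-family pairs was 26 bases, between Cacng5 and Cacng7. All 10 genes had whole-number expected counts at gene level in both libraries, so their totals show no reads divided with other genes.

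Levels are given in TPM, the unit of the deposited tables that divides reads by transcript length and library total, and so can be compared between genes. All 10 genes reached 1 TPM in both animals, against 26.5% of all annotated genes and 58.4% of the 21951 protein-coding ones. They fell into an upper group led by Cnih2, with Cacng7, Cacng8 and Cacng3 close together below it, a middle group of Cnih3, Shisa9, Cacng2 and Cacng4, and a low pair, Shisa6 and Cacng5. The highest mean was 20.4 times the lowest. Libraries of a whole tissue cannot tell fewer cells of a type from less RNA per cell, and that holds for every level below.

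**Figure D1:**
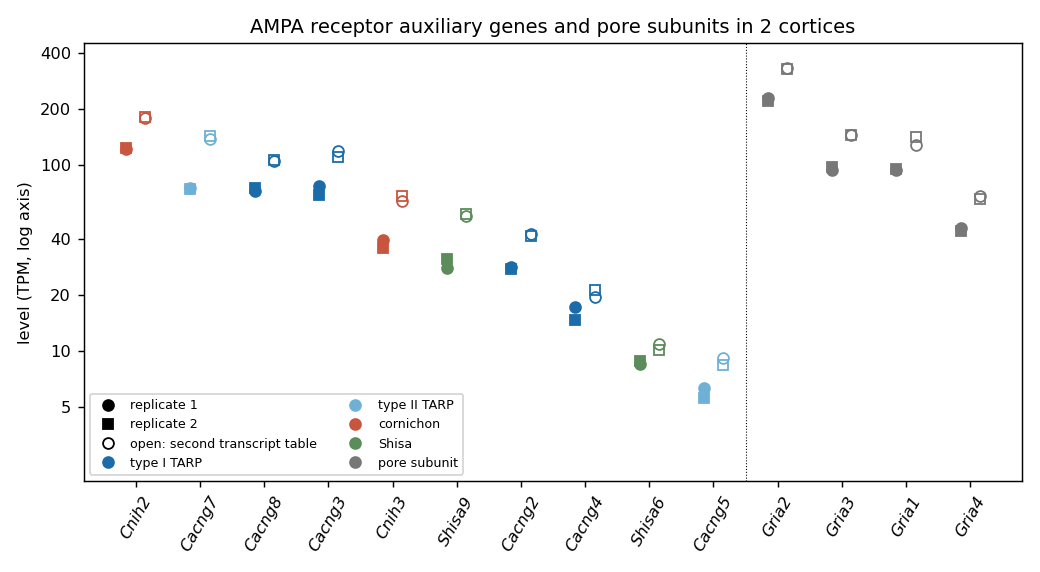
TPM (log axis) of the 10 auxiliary genes, ordered by mean, and of the 4 pore subunits; circles are replicate 1, squares replicate 2, filled symbols the gene table and open symbols gene sums of the second transcript table. Cnih2 sits at 122.36 TPM and Cacng5 at 5.995 TPM in the gene table, and every open symbol lies above the filled ones of its gene.

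The type I TARP genes spanned a wide range. Cacng8, whose product is best known from the hippocampus, was at 72.5 and 75.02 TPM (73.8 ± 1.78, SD, n = 2). Cacng3, the closest relative of stargazin in this set by coding sequence, was at 76.93 and 69.23 TPM (73.1 ± 5.44). Cacng2 itself, the gene disrupted in the stargazer mouse, was at 28.31 and 27.61 TPM (28.0 ± 0.49). Cacng4 was the lowest of the type I genes, at 17.31 and 14.63 TPM (16.0 ± 1.90). The values of Cacng8 and Cacng3 overlapped between the genes, while both lay above Cacng2 and Cacng2 lay above Cacng4 in each animal. Within each library Cacng3 was 2.72 and 2.51 times, Cacng8 2.56 and 2.72 times and Cacng4 0.611 and 0.530 times the TPM of Cacng2. Stargazin was thus 14.5% and 14.8% of type I TARP TPM. These ratios and shares count all transcripts. The Cacng3 total includes incomplete transcripts, and the complete Cacng3-201 alone was at 48.56 and 49.62 TPM, below the Cacng8 total but above Cacng2. The Cacng4 total includes a short non-coding transcript, and the coding Cacng4-201 alone was at 13.02 and 14.25 TPM.

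The type II genes were the most unequal pair. Cacng7 was at 74.82 and 73.9 TPM (74.4 ± 0.65, SD, n = 2), level with Cacng8 and Cacng3. Cacng5 was at 6.37 and 5.62 TPM (5.995 ± 0.53) on 461 and 455 expected counts, the fewest of the 10 genes. Over all transcripts Cacng7 therefore stood 11.7 and 13.1 times above Cacng5 in the gene table, and 14.96 and 17.07 times above it in the second transcript table. The larger ratios there include a retained-intron transcript, Cacng7-202, at 49.5 and 56.3 TPM. The coding Cacng7-201 alone was at 87.8 and 86.7 TPM in that table, against 9.17 and 8.38 TPM for Cacng5.

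The cornichons were high and also unequal. Cnih2 was at 121.52 and 123.2 TPM (122 ± 1.19, SD, n = 2), above 94.8% of the 14744 detected genes and above all 3 of the pore subunits other than Gria2. Cnih3 was at 39.37 and 35.7 TPM (37.5 ± 2.60), so the ratio of Cnih2 to Cnih3 was 3.09 and 3.45. The second table gave a smaller ratio, 2.76 and 2.66.

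The Shisa genes were the lowest family. Shisa9, which encodes the first CKAMP protein described, was at 28.06 and 31.32 TPM (29.7 ± 2.31, SD, n = 2). Shisa6 was at 8.57 and 8.8 TPM (8.69 ± 0.16). Over all transcripts Shisa9 was 3.27 and 3.56 times Shisa6 in the gene table and 4.88 and 5.42 times in the second table. Non-coding transcripts held 43.3% and 37.0% of Shisa9 TPM in the second table. Protein-coding transcripts alone put Shisa9 at 19.94 and 22.41 TPM and Shisa6 at 7.27 and 6.72 TPM in the first transcript table. In the order of the 10 means, 6 of 9 neighbours were separated, meaning that both values of the higher gene exceeded both of the lower. The exceptions were Cacng7 and Cacng8, Cacng8 and Cacng3, and Shisa9 and Cacng2. By the second table, 8 of these 9 pairs were separated in the same order. Cacng8 and Cacng3 were separated in the reverse order there, with Cacng3 at 118.5 and 110.3 TPM and Cacng8 at 104.8 and 105.8 TPM. These totals count non-coding and incomplete transcripts. In the second table the coding Cacng7-201 alone was at 87.8 and 86.7 TPM, below Cacng8. The complete Cacng3-201 was at 79.5 and 79.4 TPM, below Cacng8 too. The coding Shisa9-201 (22.8 and 22.9 TPM) and Shisa9-202 (7.38 and 11.6 TPM) together lay below Cacng2 (42.7 and 41.6 TPM).

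Summed over the families, auxiliary transcripts were about as abundant as those of the pore. The 10 genes added up to 473.76 and 465.03 TPM (469 ± 6.17, SD, n = 2), and Gria1 to Gria4 to 464.26 and 458.64 TPM (461 ± 3.97). That made 102.0 and 101.4 TPM of auxiliary genes per 100 TPM of pore subunits. The second table gave 109.8 and 109.3, and protein-coding transcripts alone gave 120.3 as the mean of the animals, a choice that also leaves out non-coding transcripts of the pore genes. These are ratios of transcripts and say nothing of protein. Type I TARPs held 41.2% and 40.1% of the auxiliary TPM, cornichons 34.0% and 34.2%, type II TARPs 17.1% and 17.1%, and Shisa genes 7.73% and 8.63%. In the second table the Shisa share was 8.67% and 8.71%, so its difference between the animals in the gene table was not shared.

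**Figure D2:**
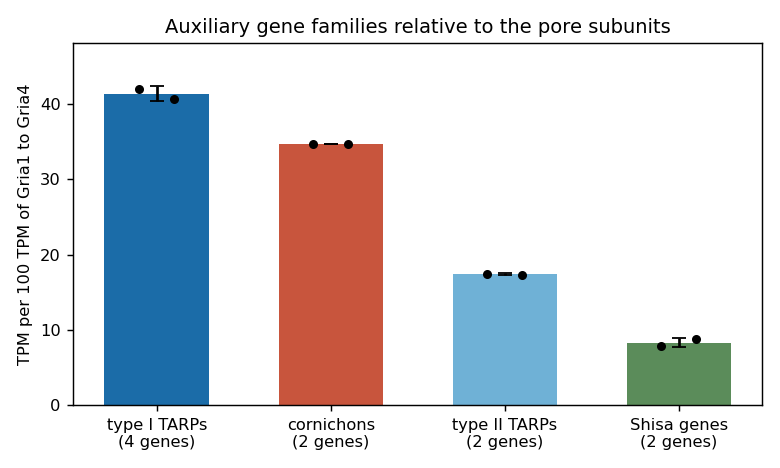
Summed TPM of each auxiliary family per 100 TPM of Gria1 to Gria4; bars are means of 2 animals, error bars the SD and points the animals. Type I TARPs stand at 41.3, cornichons at 34.7, type II TARPs at 17.4 and Shisa genes at 8.32.

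Among the pore subunits, Gria2, which makes the channel calcium-impermeable once edited, was at 230.01 and 221.96 TPM. Gria1 was at 93.98 and 94.87 TPM, Gria3 at 94.32 and 97.47 TPM, and Gria4 at 45.95 and 44.34 TPM. Gria2 alone was 49.5% and 48.4% of the pore TPM. Of 15 other auxiliary, assembly and partner genes, 14 were detected. The highest was Olfm1 (noelin) at 732.37 and 738.05 TPM, and the one not detected in both animals was Shisa8 at 0.84 and 1.02 TPM. Gsg1l, a more distant relative of the TARPs, was at 35.32 and 36.68 TPM, and Shisa7 at 58.65 and 50.3 TPM, above both Shisa genes of the set. Frrs1l, which acts in receptor assembly, was at 94.31 and 86.48 TPM. All 12 anchoring and clustering genes were detected. Nsf, an ATPase that binds the receptor tail, had the highest mean in the gene table (412.45 and 418.39 TPM), but did not stand apart from Dlg4, which encodes PSD-95 (423.32 and 406.86 TPM). In the second table Dlg4 was higher, at 831.1 and 791.7 TPM against 525.9 and 538.3 TPM for Nsf. Grip2 was lowest (6.59 and 6.95 TPM).

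Relatives that are not counted as receptor partners ranged from near 0 to the level of the upper members. Of 8 such genes, 5 were detected. Cacng1, the skeletal muscle calcium channel subunit, had 1 count in each library, and Cacng6 was at 0.69 and 0.43 TPM. Shisa3 was at 0.61 and 0.6 TPM and Shisa2 at 1.4 and 1.06 TPM. Shisa4 was the highest relative, at 78.58 and 85.52 TPM, and Cnih1 was at 35.16 and 36.74 TPM. All 6 TARP genes were thus detected, and Cacng1 and Cacng6 were not.

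Several of the detected TARP genes sit beside these undetected relatives on the chromosome. On chromosome 7, Cacng7, Cacng8 and Cacng6 follow each other on the same strand with no protein-coding gene between them. The gaps are 22461 and 8546 bases. Along this row the levels ran from the 2 TARP genes to the low values of Cacng6. On chromosome 11, Cacng1, Cacng4, Cacng5 and Prkca form a second row, with gaps of 15834, 80047 and 18331 bases. There Cacng1 was near 0, Cacng4 and Cacng5 were low among the 10 genes, and Prkca, a protein kinase C gene, was at 73.8 and 75.07 TPM. Prkcb, at 432.97 and 455.05 TPM, lies 36089 bases before Cacng3 on chromosome 7.

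Cornichon and TARP genes keep their families' layout of coding exons. Both cornichon transcripts have 6 coding exons and 480 coding bases. Type I TARPs have 4 coding exons and type II TARPs 5. Introns differ widely in length: the largest intron is 105284 bases in Cacng2, 247427 in Shisa9 and 277659 in Shisa6, against 3382 in Cnih2.

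The 2 animals were close for every auxiliary gene. By TPM 0 of 10 were more than 25% apart (the higher value over the lower), where 14.3% of the 18136 genes tested, those averaging 10 or more expected counts, were, and 0.695% were over 2-fold apart. By the second table it was again 0 of 10, against 17.5%. Among the 6364 genes with mean counts in the range of the 10, only 3.54% were that far apart by TPM and 1.54% by counts scaled with edgeR's TMM factors, where it was 0 of 10 too, so none of these counts sets the auxiliary genes apart from others of their depth. The median log2 difference of replicate 2 against replicate 1 on TPM + 0.5 was -0.03 over the 10 genes and -0.03 over all genes tested. On TMM-scaled counts the medians were 0.02 and -9.7e-05. By TPM 4 of the 10 were higher in replicate 2, against 41.5% of all genes tested, and by TMM-scaled counts 5 of the 10, against 50.0%.

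Shisa9 was the one gene of the 10 whose 95% counting interval on TMM-scaled counts lay off 0. It had 1807 and 2222 expected counts, a log2 difference of 0.17 (exact binomial interval 0.08 to 0.26). The interval covers counting error only, and among genes with as many counts as the 10, 23.5% of 6364 had an interval off 0. By the second table the log2 difference of Shisa9 was 0.04. An interval off 0 was thus not rare between these libraries.

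For Cacng4 the sign depended on the measure. It had 919 and 1094 expected counts, a TMM-scaled log2 difference of 0.12 (interval -0.01 to 0.25), and the TPM of the second table gave 0.11. The gene-table TPM of Cacng4 went the other way, from 17.31 to 14.63, a log2 difference of -0.24. The mean transcript length that the gene table assigns to Cacng4 rose from 2736 bases in replicate 1 to 3420 bases in replicate 2. Nearly all reads belonged to Cacng4-201, of 3500 bases, with 891 and 1091 expected counts. The non-coding Cacng4-202, of 422 bases, took 27.9 and 2.77 expected counts. Because TPM divides by length, those few reads were 24.8% and 2.60% of the gene's TPM. The TPM of Cacng4-201 alone was 13.02 and 14.25, higher in replicate 2, and the second table gave Cacng4-202 no reads in either animal.

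In Cacng3 and Cnih3 the gene TPM was lower in replicate 2 while the TPM of the leading transcript in the first table was not. Cacng3 had a gene TPM of 76.93 and 69.23, but its leading transcript Cacng3-201 was at 48.56 and 49.62 TPM. The remainder came from Cacng3-203 and Cacng3-202, whose annotated ends are incomplete and which together held 36.9% and 28.3% of TPM on 394.7 and 294.2 expected counts. Cnih3 had a gene TPM of 39.37 and 35.7, while Cnih3-201 was at 27.89 and 29.29 TPM. By the second table Cacng3 was also lower in replicate 2, at a log2 of -0.10, and Cnih3 was higher, at 0.08. On TMM-scaled counts both genes were within their counting error of no difference, at a log2 of -0.01 (interval -0.08 to 0.07) for Cacng3 and -0.01 (-0.11 to 0.08) for Cnih3. Over all genes tested, 17.1% had opposite signs by TPM and by TMM-scaled counts.

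**Figure D3:**
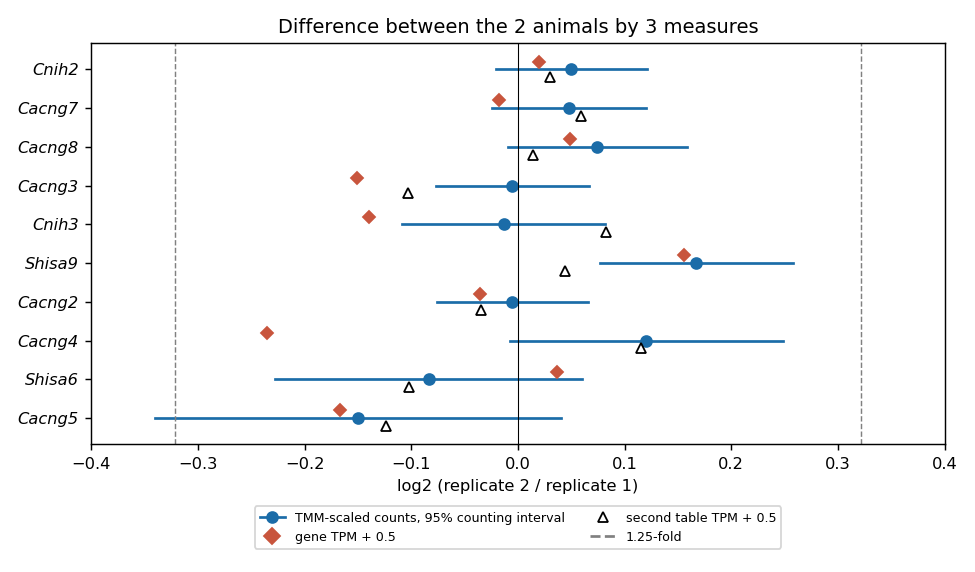
Log2 of replicate 2 over replicate 1 for each gene, by TMM-scaled counts (circles, with the 95% counting interval as bars), gene TPM + 0.5 (diamonds) and the second transcript table (triangles); dashed lines mark 25% higher and the same fold lower. All points lie inside the dashed lines, and the Cacng4 diamond at -0.24 lies on the opposite side of 0 from its circle at 0.12.

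Some markers of layers and glia differed between the libraries. Of 3 upper-layer markers, 0 were higher in replicate 2, and their summed TPM went from 249.98 to 197.8. All 4 deep-layer markers were higher, with a sum of 49.7 and 58.7. All 5 oligodendrocyte markers were higher, summing to 579.2 and 770.6, and all 4 immediate early genes were lower, with a sum of 353.5 and 207.3. Choroid plexus markers went from 22.1 to 196.7, nearly all of it transthyretin (Ttr). Other glial lists moved less or the other way: astrocyte markers summed to 338.8 and 307.04 with 1 of 4 higher in replicate 2, oligodendrocyte precursor markers to 50.4 and 47.5 with 0 of 3 higher, and microglial markers to 69.8 and 71.3. None of these markers was at 0 in either animal. Against that, the 5 markers of cortical glutamatergic neurons, all detected, summed to 809.9 and 797.8, and the 3 GABAergic markers to 212.7 and 214.4. Striatal markers summed to 15.1 and 18.0 TPM, hippocampal ones to 8.75 and 8.5 TPM and olfactory bulb ones to 5.42 and 5.25 TPM. Cerebellar markers summed to 4.31 and 6.36 TPM, mostly Cbln1 (4.16 and 6.21 TPM). Whether any of this had a part in the small differences of the auxiliary genes was not tested.

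The leading transcript, the one with the largest share of a gene's TPM, was the same in both animals for all 10 genes in the first transcript table. By the mean of the animals, the second table named the same one for 9 of 10, Cacng8 being the exception. In replicate 2 alone it also named another for Cacng5. The annotation holds 28 transcripts of these genes. Cacng2 has a single one, and Cnih2-201 held 99.6% and 99.4% of its gene.

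**Figure D4:**
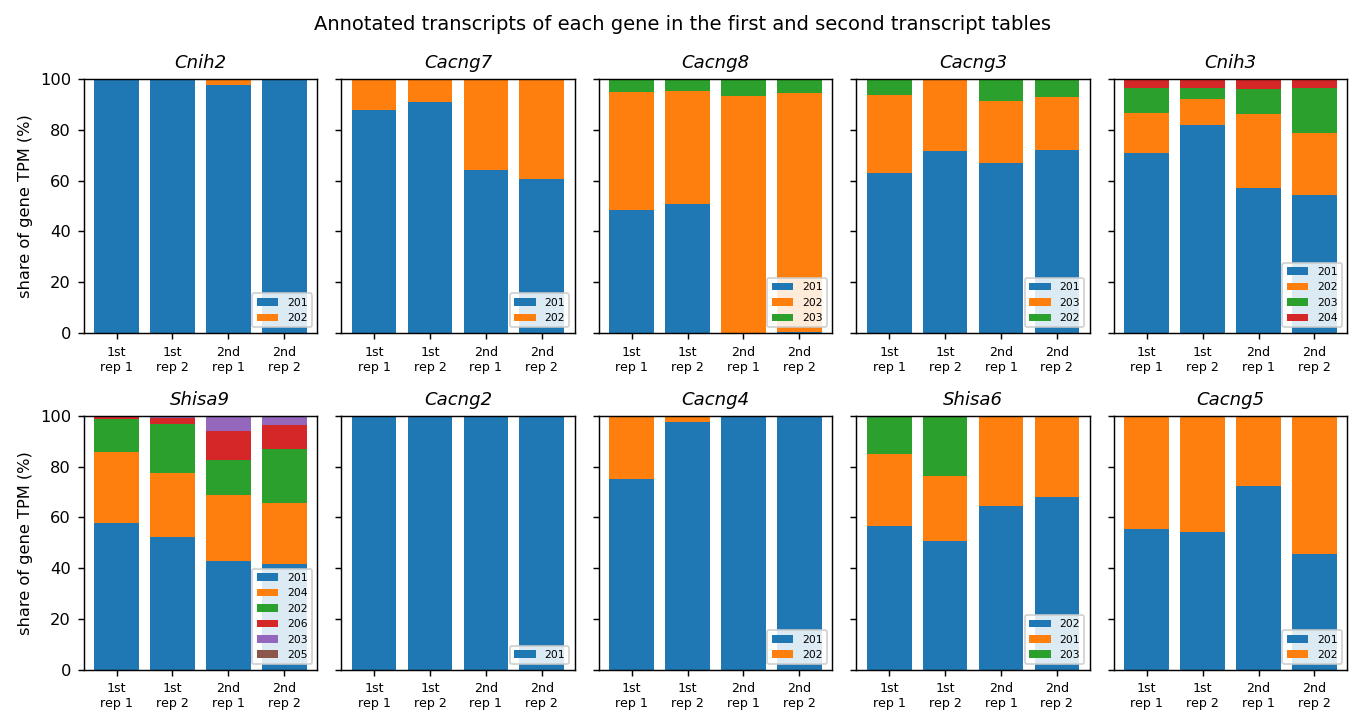
Share of gene TPM (percent) of each annotated transcript in the first and second transcript tables (1st, 2nd) for both animals (rep 1, rep 2). The tables differ most for Cacng8, where Cacng8-202 holds 46.4% and 44.5% in the first and 93.5% and 94.02% in the second.

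Cacng8 is split between a pair of annotated transcripts with the same coding sequence. In the first table Cacng8-201 held 48.4% and 50.7% of TPM and Cacng8-202 46.4% and 44.5%. In the second table Cacng8-201 held 1.1e-05% and 0.528% and Cacng8-202 93.5% and 94.02%. Both carry the identical 1269 coding bases without the stop codon, in 4 coding exons. Cacng8-202 adds non-coding exons upstream and bases after the stop codon. The split between them is therefore one of untranslated sequence, and the sum of the pair was stable at 94.8% and 95.2% in the first table.

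RefSeq (GRCm38.p6) places the start of Cacng8 75 bases from the nearest GENCODE start, at the first base of exon 3 of Cacng8-202. The bases before it are thus intron in Cacng8-202. The 100 bases before that RefSeq start are shown beside those before the pair of Cacng5 starts, because all 3 concern which first exon is used; capitals mark CG dinucleotides.
Cacng8, chr7:3393942-3394041, plus strand: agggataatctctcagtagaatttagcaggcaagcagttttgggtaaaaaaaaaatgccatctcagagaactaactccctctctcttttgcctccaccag
Cacng5, start of Cacng5-201, chr11:107915056-107915155, minus strand: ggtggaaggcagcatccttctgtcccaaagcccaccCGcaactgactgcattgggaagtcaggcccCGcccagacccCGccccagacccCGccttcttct
Cacng5, start of Cacng5-202, chr11:107911363-107911462, minus strand: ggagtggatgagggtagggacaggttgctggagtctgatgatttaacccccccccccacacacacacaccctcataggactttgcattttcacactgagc
The Cacng8 stretch holds 0 CG dinucleotides. The stretch before the Cacng5-201 start holds 4 and the one before the Cacng5-202 start 0. RefSeq promoter windows of 300 bases were given for 7 of the 10 genes, 8 windows in all. TATAAA was on either strand in 0 of the 8 windows, against 13.6% of all 32851 windows, and so few windows do not set these genes apart. The RefSeq starts of Cacng2 and Cacng3 lie 748 and 326 bases from the nearest GENCODE start. Their windows fall within the annotated first exons of Cacng2-201 and Cacng3-201. The 300-base windows of the Cacng5 starts hold 17 and 5 CG dinucleotides, where the median window holds 7. No match says only that those letters are not in the window.

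Both Cacng5 transcripts encode the same protein from those separate first exons. The first table gave them nearly equal shares, 55.6% and 54.3% for Cacng5-201 against 44.4% and 45.7% for Cacng5-202. The second table gave Cacng5-201 72.3% in replicate 1 and 45.8% in replicate 2, so its leading transcript changed between the animals. No preference for either start held in both tables and both animals.

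Cacng7 has a retained-intron transcript, Cacng7-202, beside the coding Cacng7-201. The first table gave Cacng7-202 12.4% and 9.05% of TPM, the second 36.03% and 39.39%. In reads the share was smaller, 4.57% and 3.25% of expected counts in the first table and 12.3% and 14.1% in the second, because Cacng7-202 is 812 bases long and Cacng7-201 2212. Counting Cacng7-201 alone, Cacng7 was at 65.53 and 67.21 TPM, below the totals of Cacng8 and Cacng3 over all their transcripts in the gene table. The Cacng3 total includes its incomplete transcripts, and Cacng3-201 alone was lower than Cacng7-201, at 48.56 and 49.62 TPM.

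Coding bases added to a transcript, relative to another transcript of the same gene, are shown for 4 of the genes; other coding differences, such as exons that Cacng3-202, Cacng3-203 and Cnih3-203 lack, are not shown. Each is read from a transcript that carries it, in mm10, with the added bases in capitals and 15 bases of the same transcript on each side. In Cnih2-202 the stretch after the capitals runs through the stop codon into non-coding sequence.
Cnih3-202, longer exon, chr1:181409677-181409733, plus strand: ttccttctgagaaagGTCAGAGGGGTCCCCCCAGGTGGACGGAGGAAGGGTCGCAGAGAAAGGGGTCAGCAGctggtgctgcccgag
Cnih2-202, longer exon, chr19:5094706-5094731, minus strand: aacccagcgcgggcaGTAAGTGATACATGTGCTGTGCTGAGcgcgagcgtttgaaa
Shisa9-202, added exon, chr16:12252785-12252832, plus strand: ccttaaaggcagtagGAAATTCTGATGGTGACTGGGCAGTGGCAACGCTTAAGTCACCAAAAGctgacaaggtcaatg
Shisa6-202, added exon, chr11:66375159-66375254, minus strand: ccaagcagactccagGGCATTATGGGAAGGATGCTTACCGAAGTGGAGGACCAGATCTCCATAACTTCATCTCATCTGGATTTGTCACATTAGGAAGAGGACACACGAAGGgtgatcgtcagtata
The additions are 57, 26, 48 and 96 bases long. Those of Cnih3, Shisa9 and Shisa6 are multiples of 3 and add 19, 16 and 32 codons within the reading frame. The 26 bases of Cnih2-202 are not a multiple of 3, and that transcript is annotated as a target of nonsense-mediated decay.

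**Figure D5:**
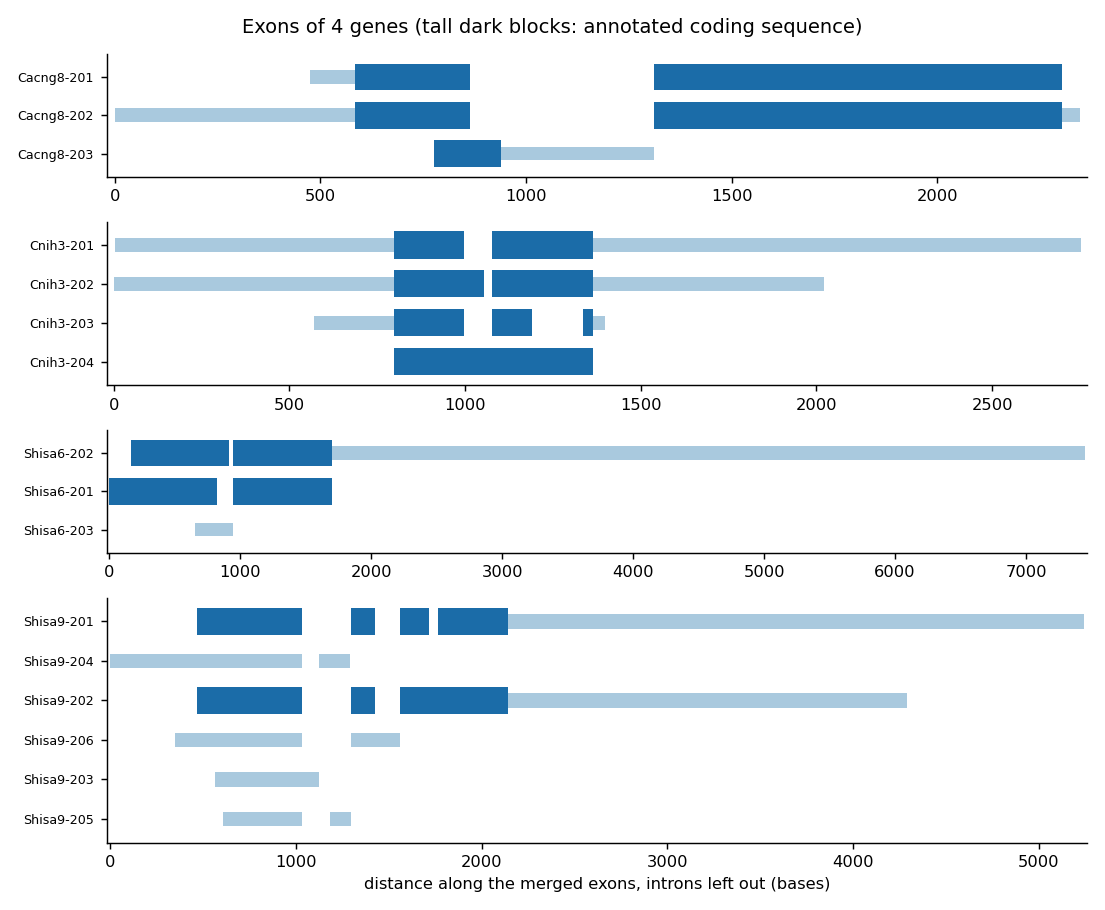
Exons of Cacng8, Cnih3, Shisa6 and Shisa9 transcripts along the merged exons of each gene (distance in bases, introns left out), with coding sequence as tall dark blocks and other exon sequence as low light blocks. Shisa9-202 and Shisa6-202 carry blocks that Shisa9-201 and Shisa6-201 lack, and those pairs also end at different places.

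In Shisa9 the transcript with the 48-base exon was higher in replicate 2 in both tables. The first table gave Shisa9-202 245.4 and 452.1 expected counts, 13.1% and 19.3% of TPM. The second gave it 352.0 and 615.4 estimated counts, 13.9% and 21.2% of TPM. After TMM scaling the ratio of replicate 2 to replicate 1 was 1.68 (exact counting interval 1.44 to 1.98) in the first table and 1.60 (1.40 to 1.82) in the second. The other Shisa9 transcripts together had ratios of 1.03 and 1.01 in the first and second table. Among transcripts with a mean count from 0.5 to 2 times that of Shisa9-202, 7.03% of 9256 in the first table and 7.56% of 8904 in the second were at least as far apart in either direction. The intervals leave out the error of dividing reads among transcripts. The deposited bounds of its TPM, 2.56 to 4.65 and 4.49 to 7.22, overlapped between the animals. Shisa9-202 was singled out after its values were seen. It is annotated over 3421 bases and Shisa9-201 over 4326, and they also end at different places. Reads that separate the pair therefore need not touch the 48-base exon, and use of that exon was not measured by itself.

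The rest of Shisa9 was led by Shisa9-201, with 58.0% and 52.3% of TPM. The non-coding Shisa9-204 held 27.7% and 25.2%, and all non-coding transcripts together 28.9% and 28.5% in the first table and 43.3% and 37.0% in the second. Counting protein-coding transcripts alone, Shisa9 was at 19.94 and 22.41 TPM, below Cacng2, whereas all transcripts put it level with Cacng2.

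In Shisa6 the leading transcript was Shisa6-202, the coding transcript with the 96-base exon, whose annotated start is incomplete. It held 56.8% and 50.9% of TPM and 90.2% and 89.7% of expected counts. Shisa6-201, without that exon, held 28.0% and 25.5% of TPM. The pair also differ in that Shisa6-202 is annotated over 7252 bases with a long end after the stop codon and Shisa6-201 over 1578, so most of these reads need not touch the exon. The non-coding Shisa6-203, of 285 bases, also covers the 96 bases and took 15.2% and 23.6% of TPM on 4.86 and 8.72 expected counts, and 0 in the second table.

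In the cornichons the longer exons were the minor choice. Cnih3-202 held 15.6% and 9.92% of TPM in the first table and 29.2% and 24.1% in the second. Its TMM-scaled ratio between the animals was 0.588 (exact counting interval 0.475 to 0.723) by the first table and 0.888 (0.781 to 1.01) by the second, so the size of that difference was not shared by the tables. Cnih3-201 held 70.8% and 82.0% in the first table. Cnih3-204 carries a still longer form of the Cnih3 exon. Together, Cnih3-202 and Cnih3-204 held 19.3% and 13.3% of TPM in the first table and 33.0% and 27.8% in the second. Cnih3-202 is annotated over 1995 bases and Cnih3-201 over 2668, and they also end at different places. Reads that separate this pair therefore need not touch the exon. Cnih2-202 had 8.19 and 13.8 expected counts, 0.387% and 0.568% of the TPM of its gene.

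Genes that overlap the auxiliary genes had few reads. The antisense A730060N03Rik, which shares 323 bases with Cacng2, had 187 and 204 counts, against 3083 and 3364 for Cacng2. Yif1a, which shares 14 bases with Cnih2 on the opposite strand, had 221 and 248 counts. Gm12296, opposite Shisa6, had 10 and 8. The sources used here do not give whether counting used strand, so reads in these stretches cannot be assigned to a strand with certainty.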

How the data were processed

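Per the deposited file lists, reads of each library were quantified on mm10 with GENCODE M21, once for genes and by separate routes for transcripts. The authors' gene table and first transcript table hold expected counts, TPM and the percent of gene TPM per transcript, and the second transcript table estimated counts and TPM, per the file headers. Column names are those of RSEM and kallisto; which aligner, versions and strand setting were used is not given in the sources used here. Effective length in the deposited tables is the length less 99 bases. TPM sums over all rows, so abundant short RNAs lower every other gene, and reads of a CAST/EiJ allele were placed on a C57BL/6J reference.

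Here TPM were summed and compared per animal, with differences as log2 on TPM + 0.5 (so changes of low genes are understated) and exact binomial 95% intervals on TMM-scaled counts. Intervals cover counting error only, since the sources name no molecular identifiers and reads from one molecule cannot be told apart. Detection was 1 TPM in both animals; the count minimum was a mean of 10. Expected counts were rounded for the scaling factors. Numbered rows that name no gene (7 and 10 counts, 2.3e-05% and 3.0e-05%) were left out. All 10 genes, the partner lists and transcripts with at least 10% of a gene's TPM were named by rule. The members and lists were chosen with earlier results of these data known. On simulated counts the steps returned changes of 2-fold with the right sign. Coding sequences were aligned end to end with Biopython (match 1, mismatch -1, gap opening -3, gap extension -0.5). Versions were Python 3.11.15, Biopython 1.88, scipy 1.17.1, numpy 2.4.6, matplotlib 3.10.9, pandas 2.3.3, edgeR 4.0.16, R 4.3.3 and DESeq2 1.42.0. Alternatives were other detection levels, pseudocounts, scalings, TPM estimates, transcript sets, the second table and each animal alone.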

Additional observations from a re-analysis of the deposited data

How the results depend on the processing

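The summed TPM of the 10 genes, 469.4, became 458.1 with posterior mean estimates, 741.7 in the second table, 1034.8 when rescaled to nuclear protein-coding genes and 448.3 over protein-coding transcripts, and was 465.0 and 473.8 in single animals. The type I TARP share, 40.6%, became 38.1% in the second table and 42.0% over protein-coding transcripts, and was 40.1% and 41.2% in single animals. The sum per 100 TPM of pore subunits, 101.7, became 109.6 and 120.3 under the same choices, and was 101.4 and 102.0 in single animals. The median log2 difference became 0.18 on the spike-in scale, where the median of all genes was 0.14. The count of detected genes stayed at 10 under every alternative run, and the count over 25% apart at 0. By the mean of the animals the leading transcript was the same for 9 of 10 in the second table, where Cacng5 also differed in replicate 2, and for 9 of 10 by share of counts. Of 130 single-gene values under alternatives, 83 moved by less than their spread and 47 by more. Spread was the SD of the animals for a level and the arm of the counting interval for a difference. Leaving out 1 of 2 animals cannot move a level by more than that SD, and rescaling to nuclear protein-coding genes raises every level. The tally is therefore no measure of how stable the values are. The sign changed under at least 1 alternative for 7 of 10 genes, all but Cacng8, Cnih2 and Shisa9. For Cacng2, Cacng3 and Cacng5 the only such alternative was the spike-in scale, where the median of all genes was itself 0.14. Cacng8, Cnih2 and Shisa9 were higher in replicate 2 to begin with, so that upward shift could not change their sign. No paired analysis was possible because the labels give 1 group. Why the tables differ was not tested. With 2 animals the SD itself is imprecise. Depth limits transcripts with few counts, such as Cnih2-202.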
